A study of Homo sapiens with 80 samples.

Results

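The small nuclear RNAs (snRNAs) of the spliceosome were followed here in Jurkat T cells, clone E6-1, an immortalized human T lymphocyte line, after hypergravity at 9 g, after centrifugation at 300 g and after heat. The 8 genes were RNU4-1, RNU4-2, RNU4ATAC, RNU6ATAC, RNU11, RNU12, RNU5A-1 and RNU5B-1, out of 60663 genes in the count table. They were selected on their symbols with their responses to the treatments already known, so their differences from the controls are given as a description, without p-values. Only 6 of the 8 could be measured: RNU11 and RNU12 carried almost no counts or none.

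In the 9 g experiment, cells in pipettes were kept at 1 g for 15 min (Ctrl) or spent the end of that time at 9 g. The exposure lasted 20 s in the group named hypg20s and 75 s in hypg75s, and in hypg3, hypg5, hypg7, hypg9 and hypg15 the name gives the minutes. A 60 min exposure (hypg60) had its own 1 g control of equal length (Ctrl60). In the second experiment, cells were centrifuged for 5 min (300 g) and lysed 1 min (wait1min), 4 min (wait4min) or 15 min (wait15min) later, or heated at 42 °C for 5 min (heat), and uncentrifuged cells (CtrlA) were the control of both. Each of the 10 groups of the 9 g experiment had 6 libraries and each of the other 5 groups had 4; all came from the same cell line, and nothing in the labels says whether libraries of 1 group came from separate cultures, so the spread and p-values may be technical. Library 75 of hypg15 was left out because it held no counts on several chromosomes, which left 5 libraries in that group. In the count table the columns of Ctrl60 carry a name with "plus HEPES", those of wait1min read "instant" and those of wait4min "1min", while the sample titles and treatment labels give the groups used here. The 15 groups were numbered in blocks, with hypg3 and hypg15 numbered 69 to 80 and all other 9 g groups 1 to 48, so library number and group cannot be told apart.

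The total count per library ran from 22634465 to 41893490 (median 31727864, 59 libraries) in the 9 g experiment and from 24417717 to 41220541 (median 28968696, 20 libraries) in the other. Levels are CPM, counts scaled to a library of 1000000, after TMM scaling within each experiment, and a gene was called when the adjusted p of edgeR's quasi-likelihood test was below 0.05. In Ctrl all 10 T lineage markers were detected, from LAT at 5.65 CPM to LCK at 1272 CPM. Of the 10 markers of other cell types, CD79A stood at 60.9 CPM and COL1A1 at 5.94 CPM, and the other 8 were at 0.322 CPM or less, with HBB, PPBP and EPCAM at 0. The summed level of the other-type markers was 61.6 to 72.4 CPM in Ctrl, 62.2 to 66.4 CPM in hypg9, 67.6 to 69.3 CPM in CtrlA and 34.3 to 37.9 CPM in wait15min. The summed T lineage markers went from 3994 to 4090 CPM in CtrlA to 2528 to 2657 CPM in wait15min. These libraries came from bulk RNA. Levels are shares of a library, so they give neither cell numbers nor the amount of RNA per cell.

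Spliceosomes remove introns from precursor RNAs, and each is built from RNA and protein particles around a few snRNAs. In the major spliceosome, U4 is paired with U6 and joined by U5, which aligns the exons, and U4 must leave before the catalytic centre can form. The minor spliceosome removes a rare class of introns with U11 and U12 recognising the intron, U4atac and U6atac standing in for U4 and U6, and U5 shared by both machines. Most snRNAs are transcribed by RNA polymerase II, exported, given a ring of Sm proteins on a uridine-rich site and reimported, whereas U6 and U6atac are made by RNA polymerase III and bind a ring of LSm proteins at their 3′ end.

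The sequences of the U4 pair and of U4atac and U6atac are shown because they carry 2 facts on which the counts depend, the near identity of the U4 genes and the shortness of all of them. They were read 5′ to 3′ from GENCODE 29 (build GRCh38) in the DNA alphabet. Capitals mark AATTTTTG, letters that span the Sm site of these RNAs, and in RNU6ATAC the closing run of 6 T.
RNU4-1: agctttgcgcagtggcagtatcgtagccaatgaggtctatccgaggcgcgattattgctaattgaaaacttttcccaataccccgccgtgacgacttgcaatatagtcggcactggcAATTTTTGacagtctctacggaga
RNU4-2: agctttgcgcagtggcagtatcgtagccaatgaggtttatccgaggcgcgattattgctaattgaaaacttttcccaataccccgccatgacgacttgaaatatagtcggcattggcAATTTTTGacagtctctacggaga
RNU4ATAC: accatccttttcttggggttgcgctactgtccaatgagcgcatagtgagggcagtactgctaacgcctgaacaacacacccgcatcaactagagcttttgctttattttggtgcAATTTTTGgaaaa
RNU6ATAC: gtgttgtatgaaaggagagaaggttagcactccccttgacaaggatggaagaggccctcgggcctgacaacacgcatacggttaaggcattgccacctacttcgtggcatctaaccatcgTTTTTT

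The 2 U4 genes, RNU4-2 (ENSG00000202538, chr12:120291763-120291903, minus strand) and RNU4-1 (ENSG00000200795, chr12:120293097-120293237, minus strand), are both 141 bases long and differ at 4 positions. Counted from the first base, and with the base of RNU4-2 first, these are T37C, A88G, A99C and T113C. RNU5A-1 (ENSG00000199568) and RNU5B-1 (ENSG00000200156) are also closely similar genes. The longest stretch without a difference is 50 bases in the U4 pair, and the split of counts between paired genes is less certain than their sum. RNU4ATAC (ENSG00000264229, chr2:121530881-121531007, plus strand, 127 bases) lies in an intron of CLASP1-AS1 on its own strand and within the span of CLASP1 on the other. RNU6ATAC (ENSG00000221676, chr9:134164439-134164564, minus strand, 126 bases) shares no base with another exon in the table. Searched on the given strand only, AATTTTTG or the longer AATTTTTTG occurred in 3.74% of 2113 GENCODE 29 transcripts of like length, and in 3 of the 4 shown here.

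RNU12 (ENSG00000276027, chr22:42615244-42615393, plus strand, 150 bases), the gene of U12, had 0 counts in all 79 libraries, and RNU11 (ENSG00000274978, chr1:28648600-28648733, plus strand, 134 bases), the gene of U11, had 0 to 12 with 8 libraries at 0. All 150 bases of RNU12 lie in an exon of ENSG00000270022 on the same strand, and 131 of the 134 bases of RNU11 coincide with ENSG00000270103, itself at 0 counts throughout. The recorded counting command names no option to keep read pairs that overlap 2 genes. Over the whole table, 667 of 667 genes of up to 200 bases that lay wholly inside exons of another gene on the same strand had 0 counts in all libraries, against 3586 of 6765 (53.0%) of those that shared no exon base. The zeros of RNU12 therefore say nothing of the RNA itself. RNU11, not wholly inside another gene, is not among the 667, and its few counts were not read as a level of U11. A count of 0 allows up to 3 counts, 0.0716 to 0.133 CPM without TMM scaling, depending on the library. This holds only for read pairs that the rule would count. The other 6 genes passed the filter on low counts in every comparison.

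At 1 g the U4 genes had the highest levels and RNU4ATAC the lowest. Per kilobase of RNA, mean levels in Ctrl were 1061 CPM for RNU4-2, 989 for RNU4-1, 173 for RNU5A-1, 63.8 for RNU5B-1, 63.3 for RNU6ATAC and 17.4 for RNU4ATAC. The ranges of RNU4-1 (132.8 to 148.5 CPM) and RNU4-2 (143.3 to 157.1 CPM) overlapped, as did those of RNU5B-1 and RNU6ATAC, while the other neighbours in this order were apart. The same order held in CtrlA except that RNU6ATAC (58.3) stood just above RNU5B-1 (55.8). Waiting 60 instead of 15 min at 1 g moved none of the 6 genes past the test (Ctrl60 against Ctrl, a comparison not named in the selection, adjusted p of 1 by edgeR for each, log2 fold changes from -0.14 to 0.11), where 0.00621% of 16109 genes were called lower and 578 had an unadjusted p under 0.05.

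**Figure D1:**
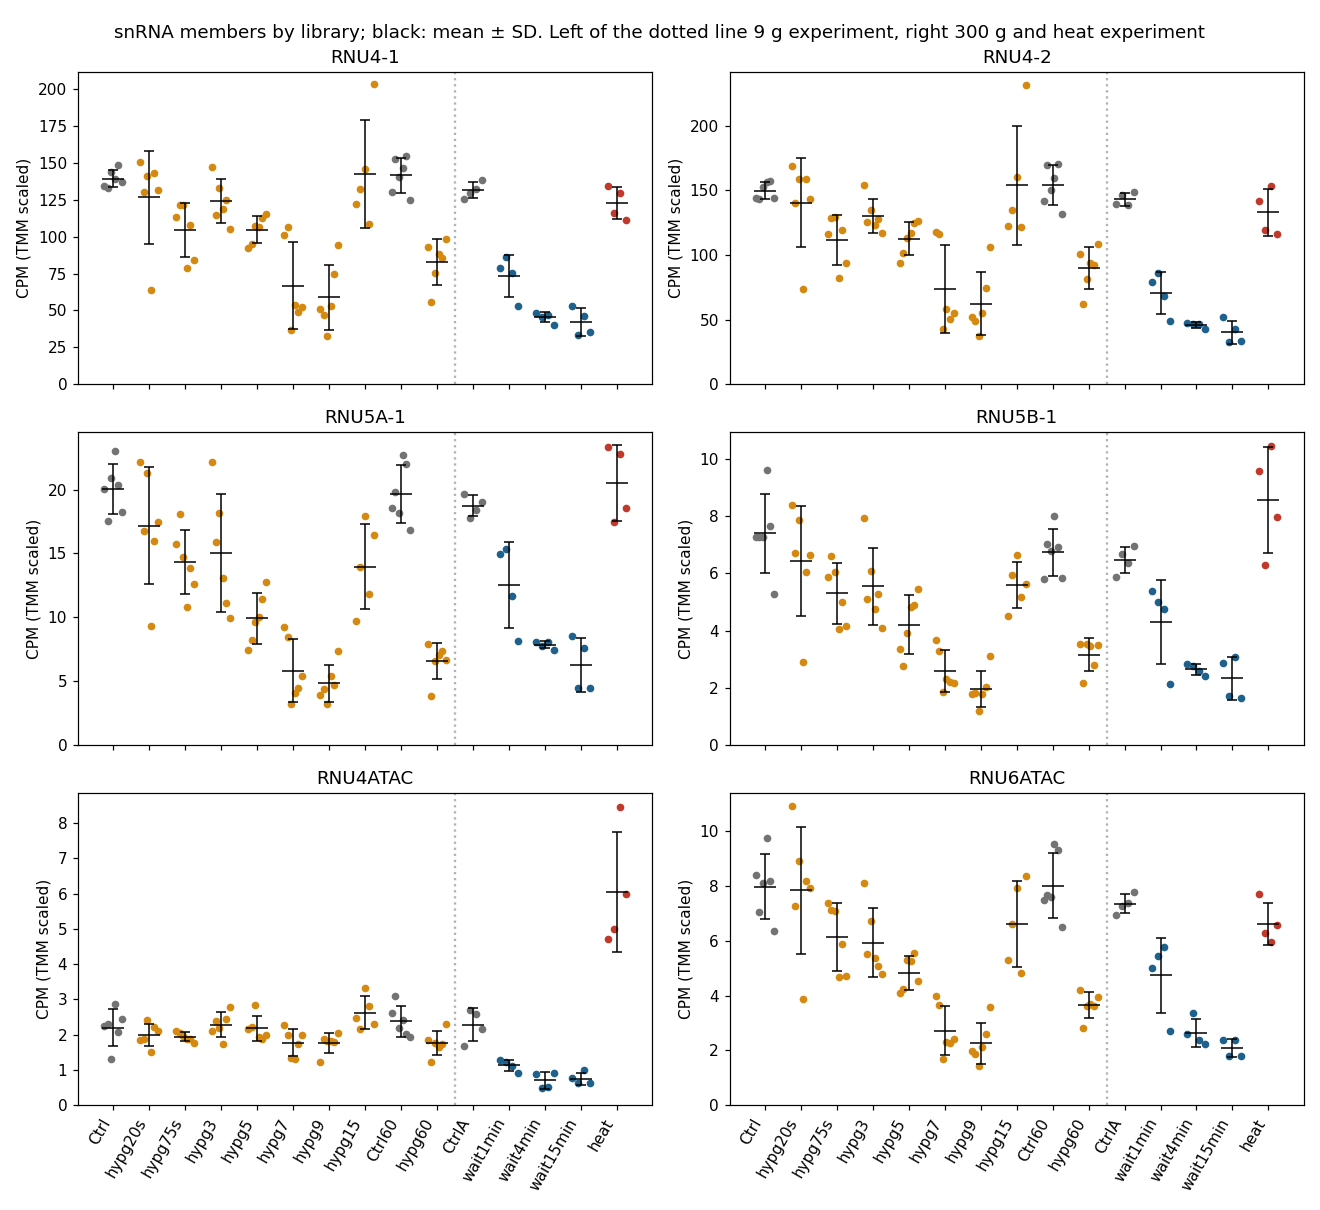
Level of each of the 6 measurable snRNAs (CPM after TMM scaling, linear axis from 0) in every library of the 15 groups; points are libraries, black marks are the mean and SD. The panels other than RNU4ATAC dip at hypg7 and hypg9, all 6 are low in the 3 groups spun at 300 g, and only RNU4ATAC stands wholly above CtrlA after heat.

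U4, the partner that keeps U6 inactive until the spliceosome is activated, was lower at each exposure from 75 s to 9 min at 9 g, most of all at 7 and 9 min, and was not called at 15 min. Neither U4 gene was called in hypg75s, hypg3 or hypg5 with all groups in 1 model, nor in hypg3 with GC correction. RNU4-1 had 132.8 CPM in the lowest, 138.2 in the median and 148.5 in the highest Ctrl library. In hypg5 these were 92.2, 107.1 and 115.1 CPM, in hypg7 37.0, 53.0 and 106.6 CPM, and in hypg9 32.8, 52.1 and 94.7 CPM. All hypg5, hypg7 and hypg9 libraries lay below all Ctrl libraries. The hypg7 libraries were uneven: libraries 31 and 32 held 101.1 and 106.6 CPM, inside the range of hypg5, while libraries 33 to 36 held 37.0 to 53.6 CPM. RNU4-1 was 1.33-fold lower in hypg5 (log2 fold change -0.41 ± 0.06 SE), 2.09-fold lower in hypg7 (-1.07 ± 0.21) and 2.37-fold lower in hypg9 (-1.24 ± 0.17). In the 5 libraries of hypg15 it stood at 122.4, 132.7, 145.7, 108.4 and 203.3 CPM, on both sides of Ctrl. After 60 min it was low again, with 55.8, 87.1 and 98.4 CPM as lowest, median and highest against 125.2, 143.4 and 154.8 CPM in Ctrl60, a 1.70-fold difference without overlap.

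RNU4-2 followed RNU4-1 closely at every time at 9 g. Its lowest, median and highest levels were 143.3, 148.5 and 157.1 CPM in Ctrl and 37.3, 53.8 and 105.9 CPM in hypg9, which did not overlap (log2 fold change -1.26 ± 0.18 SE). The log2 fold changes of the 2 genes differed by at most 0.05 in the 8 comparisons at 9 g. RNU4-1 made up 48.2% ± 0.60 (SD, n = 6) of the summed U4 counts in Ctrl and 46.3% to 50.1% in the single libraries of all 9 g groups.

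In hypg20s neither gene was called, but library 16 stood apart, with 64.0 CPM of RNU4-1 and 74.0 CPM of RNU4-2, while the other 5 libraries held 130.1 to 150.9 CPM and 140.1 to 168.4 CPM. The same library was also the lowest of its group for the other 4 genes. Without it 0 of 6 genes were called, and the log2 fold change went from -0.14 to -0.01 for RNU4-1, from -0.10 to 0.03 for RNU4-2 and from -0.03 to 0.11 for RNU6ATAC.

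U5, which holds the exons together in both spliceosomes, fell further than U4. RNU5A-1 had 17.6, 20.2 and 23.0 CPM as lowest, median and highest in Ctrl, 3.20, 4.91 and 9.21 CPM in hypg7 and 3.21, 4.55 and 7.38 CPM in hypg9. Neither group overlapped Ctrl, and the difference was 3.46-fold in hypg7 (log2 fold change -1.79 ± 0.20 SE) and 4.15-fold in hypg9 (-2.05 ± 0.15). RNU5A-1 was called lower at 15 min (log2 fold change -0.52), but not with GC correction (-0.15), while RNU4-1 was called there only with scaling factors from short genes (-0.27). RNU5A-1 held 9.67, 13.96, 17.92, 11.82 and 16.44 CPM in the 5 libraries of hypg15, of which 1 reached into the range of Ctrl. At 60 min it held 3.86, 6.86 and 7.91 CPM as lowest, median and highest against 16.9, 19.2 and 22.7 CPM in Ctrl60, 2.99-fold lower without overlap.

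RNU5B-1 moved in the same direction, from 5.28, 7.27 and 9.63 CPM in Ctrl to 1.17, 1.81 and 3.12 CPM in hypg9 (3.82-fold lower, no overlap). In hypg60 it was 2.12-fold lower than in Ctrl60 (log2 fold change -1.09 ± 0.13 SE), less than the 2.99-fold of RNU5A-1, and the share of RNU5A-1 in the U5 counts was 67.3% ± 3.02 (SD, n = 6) in hypg60 against 74.5% ± 1.31 (n = 6) in Ctrl60.

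The minor spliceosome's U4atac and U6atac, which pair with each other in 1 particle, parted at 9 g. RNU6ATAC fell like U5: it had 6.34, 8.14 and 9.75 CPM as lowest, median and highest in Ctrl, 1.70, 2.35 and 3.97 CPM in hypg7 and 1.44, 2.04 and 3.60 CPM in hypg9. None of these hypg7 and hypg9 libraries reached the lowest Ctrl library, and the fall was 2.94-fold and 3.55-fold (log2 fold changes -1.56 ± 0.17 and -1.83 ± 0.17 SE). RNU4ATAC had 1.31, 2.27 and 2.87 CPM in Ctrl and 1.22, 1.82 and 2.04 CPM in hypg9, where the groups overlapped and the log2 fold change was -0.31 ± 0.16 SE. It was called at 9 g only in hypg60, at 1.24, 1.76 and 2.31 CPM against 1.93, 2.30 and 3.10 CPM in Ctrl60, with overlapping ranges (-0.45 ± 0.15). RNU4ATAC rests on few counts, 14 to 243 per library, so its counting error is the largest of the 6.

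**Figure D2:**
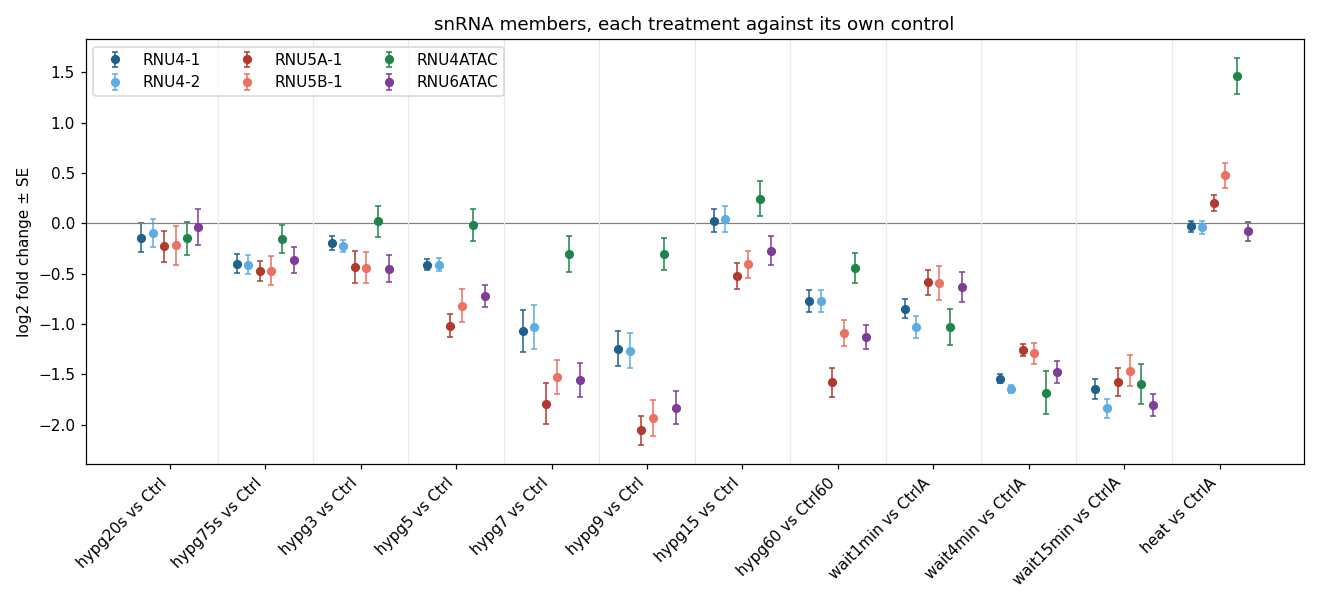
Log2 fold change with its SE (vertical axis) of the 6 measurable snRNAs in the 12 comparisons of a treatment with its own control (horizontal axis). At hypg9 the U5 genes and RNU6ATAC lie between -2.05 and -1.83, the U4 genes near -1.25 and RNU4ATAC at -0.31; at 300 g the 6 lie together, and after heat RNU4ATAC stands alone at 1.46.

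The number of the 6 genes called lower was 0 in hypg20s (8.58% of all 16137 genes tested were called lower), 5 in hypg75s (14.4%), 5 in hypg3 (24.4%), 5 in hypg5 (1.69%), 5 in hypg7 (6.19%), 5 in hypg9 (8.34%), 2 in hypg15 (27.9%) and 6 in hypg60 (13.0%), and none was called higher. Because these comparisons served to select the genes, the shares of all genes stand beside the counts and no more is read from them. The median log2 fold change of the 6 genes was -0.15, -0.40, -0.33, -0.57, -1.30, -1.55, -0.12 and -0.93 in the same order, beside medians over all genes tested from -0.02 to 0.02. The small falls at 75 s and 3 min came with overlapping ranges except for the U4 genes at 75 s, and when all groups were fitted in 1 model 1 of the 6 genes was called in each of hypg75s and hypg3, and 3 in hypg5. In hypg3, 1 gene was called with GC correction and 2 with total counts, and in hypg15 none with GC correction and 4 with scaling factors from short genes.

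RNA was purified with column kits, and the part of short RNA recovery in these results was not tested. The other genes of up to 200 bases together held 639 to 681 CPM in Ctrl, 639 to 717 CPM in hypg7, 615 to 713 CPM in hypg9, 667 to 754 CPM in hypg60, 683 to 701 CPM in CtrlA and 735 to 813 CPM in wait15min. The ranges of hypg7, hypg9 and hypg60 overlapped those of their controls, with a median of 634 in hypg9 below the lowest Ctrl library. That of wait15min lay above CtrlA on this scale. The TMM factors ran from 0.879 to 0.895 in CtrlA and from 1.05 to 1.08 in wait15min. Dividing by them puts wait15min below CtrlA, so the order of these groups depends on the scaling. The mitochondrial share of counts lay above that of the control, without overlap, in several groups. It was 1.33% to 1.60% in Ctrl and 1.71% to 2.10% in hypg9. In Ctrl60 it was 1.16% to 1.38% and in hypg60 2.12% to 2.67%. In CtrlA it was 2.03% to 2.12% and in wait15min 2.23% to 2.43%. It also lay above Ctrl in hypg75s (1.71% to 2.08%), hypg3 (1.67% to 2.33%), hypg5 (1.76% to 2.27%), hypg7 (1.80% to 2.10%) and hypg15 (1.82% to 3.32%). After heat it lay above CtrlA (2.33% to 2.47%). The part of this share in the results was not tested.

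At 300 g all 6 genes, RNU4ATAC included, were lower than in CtrlA at every waiting time. RNU4-1 stood at 125.9, 129.6, 132.3 and 138.6 CPM in CtrlA, 79.1, 86.5, 75.5 and 53.2 CPM in wait1min, 48.4, 45.8, 46.9 and 40.4 CPM in wait4min, and 53.3, 33.3, 46.5 and 35.5 CPM in wait15min. No library spun at 300 g reached CtrlA. The fall was 1.80-fold in wait1min (log2 fold change -0.85 ± 0.09 SE), 2.91-fold in wait4min (-1.54 ± 0.05) and 3.12-fold in wait15min (-1.64 ± 0.10).

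RNU4-2 fell from 139.3, 146.3, 138.4 and 148.4 CPM in CtrlA to 51.6, 32.5, 42.5 and 33.5 CPM in wait15min, 3.57-fold. RNU5A-1 fell from 19.7, 17.8, 18.4 and 19.0 CPM to 8.55, 4.46, 7.58 and 4.46 CPM, 2.97-fold, and RNU5B-1 2.76-fold. Libraries 62 and 64 were the lower pair of wait15min for all of these.

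RNU4ATAC held 1.67, 2.71, 2.60 and 2.15 CPM in CtrlA and 1.27, 1.23, 1.11 and 0.90 CPM in wait1min, 0.89, 0.50, 0.52 and 0.92 CPM in wait4min and 0.76, 0.63, 0.99 and 0.63 CPM in wait15min. The 3 groups lay wholly below CtrlA, by 2.04-fold, 3.21-fold and 3.02-fold. RNU6ATAC stood at 6.95, 7.27, 7.37 and 7.78 CPM in CtrlA and 2.39, 1.81, 2.39 and 1.78 CPM in wait15min, 3.49-fold lower (log2 fold change -1.80 ± 0.11 SE).

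All 6 genes were called lower, and lay without overlap below CtrlA, in wait1min, wait4min and wait15min, where 40.1%, 40.6% and 40.5% of all genes tested were called lower. With so many genes called in both directions, scaling matters for these comparisons, and scaling by total counts alone left RNU5B-1 uncalled in wait1min (log2 fold change -0.35). The 6 calls at the other waiting times held under all scaling alternatives tried.

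The waiting times were also compared with each other, which asks whether levels went on changing after the centrifuge had stopped. The genes were selected on the differences of each waiting time from CtrlA, from which the differences between waiting times follow, so these too are a description. Between wait4min and wait1min the log2 fold changes were -0.70 ± 0.09 SE for RNU4-1, -0.62 ± 0.10 for RNU4-2, -0.67 ± 0.13 for RNU5A-1 and -0.84 ± 0.18 for RNU6ATAC. These 4 were called lower, beside 0.246% of 17462 genes. All 4 wait4min libraries lay below all 4 wait1min libraries for RNU4-1, RNU4-2 and RNU5A-1, and for RNU6ATAC library 56 of wait1min (2.71 CPM) fell inside the wait4min range. RNU5B-1 (-0.70 ± 0.19) and RNU4ATAC (-0.65 ± 0.23) were not called. Leaving out library 55, 57, 59 or 60 left 2 genes called, DESeq2 called 1 and the fit with GC correction called 2.

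Between wait15min and wait4min none of the 6 genes was called by edgeR, with log2 fold changes from -0.33 to 0.09. No gene of the 17458 tested was called lower (0.0%), and 895 had an unadjusted p under 0.05. Between wait15min and wait1min, which served to select the genes, the 2 U4 genes, RNU5A-1 and RNU6ATAC were called lower, with log2 fold changes of -0.80, -0.81, -0.99 and -1.17, beside 0.138% of 17446 genes. Their ranges overlapped except for RNU6ATAC. None was called when library 55 or library 62 was left out, and 2 were called by DESeq2 or when library 53 or 63 was left out.

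Ratios of counts within a library do not depend on the scaling, and that of U5 to U4 moved in opposite directions at 9 g and 300 g. Per 100 counts of the 2 U4 genes there were 9.48 ± 0.91 counts (SD, n = 6) of the 2 U5 genes in Ctrl, 5.77 ± 0.81 (n = 6) in hypg9 and 5.64 ± 0.56 (n = 6) in hypg60, without overlap between hypg9 and Ctrl or between hypg60 and Ctrl60 (8.94 ± 0.59, n = 6). At 300 g the number was higher, from 9.18 ± 0.33 (n = 4) in CtrlA to 11.5 ± 1.15 (n = 4) in wait1min and 11.5 ± 0.23 (n = 4) in wait4min, again without overlap, and stood at 10.3 ± 1.44 (n = 4) in wait15min with overlap.

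RNU4ATAC counts per 100 U4 counts were 0.77 ± 0.18 (n = 6) in Ctrl, 1.61 ± 0.60 (n = 6) in hypg9 and, after 300 g, 0.93 ± 0.16 (n = 4) in wait15min against 0.83 ± 0.17 (n = 4) in CtrlA. Every hypg9 library lay above every Ctrl library. RNU4-1 made up 47.9% ± 0.85 (n = 4) of the U4 counts in CtrlA, 51.2% ± 1.31 (n = 4) in wait1min and 51.3% ± 0.76 (n = 4) in wait15min, with no overlap in either case, and 49.7% ± 0.95 (n = 4) in wait4min with overlap. The selection used the fold changes from which these ratios follow, so they were not tested.

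**Figure D3:**
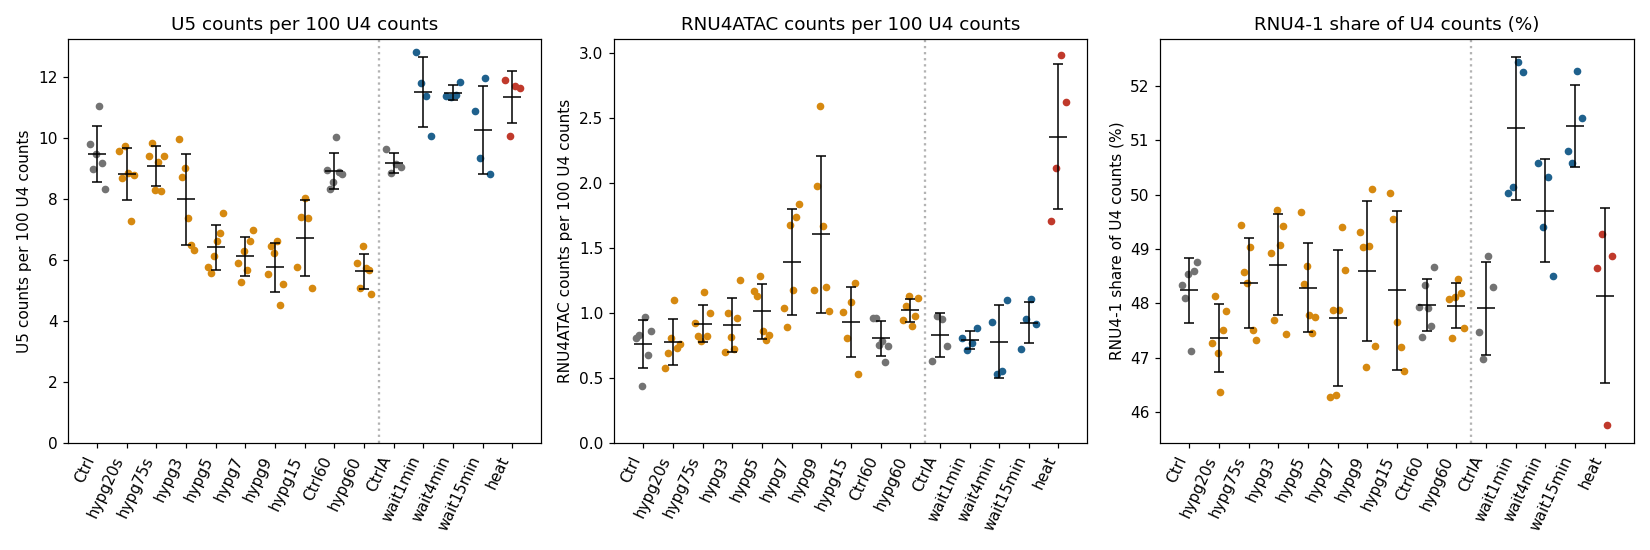
Ratios of snRNA counts within each library by group: U5 counts per 100 U4 counts, RNU4ATAC counts per 100 U4 counts (both axes from 0) and the share of RNU4-1 in the U4 counts (percent, axis not from 0); points are libraries, black marks the mean and SD. U5 is low against U4 from hypg5 on and high after 300 g and heat, and RNU4ATAC against U4 reaches 1.71 to 2.98 after heat.

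After heat, U4atac was higher, while U4 and U6atac were not called. RNU4ATAC held 4.73, 4.99, 8.45 and 5.98 CPM in the 4 heated libraries against 1.67, 2.71, 2.60 and 2.15 CPM in CtrlA, without overlap, a 2.75-fold rise (log2 fold change 1.46 ± 0.18 SE). RNU5B-1, at 9.59, 6.28, 10.47 and 7.98 CPM against 5.88, 6.68, 6.38 and 6.95 CPM, was also called higher with overlapping ranges (0.48 ± 0.12). These were 2 of the 6 genes, beside 10.6% of 16655 genes called higher and 10.2% called lower. RNU4-1 (-0.03), RNU4-2 (-0.04), RNU5A-1 (0.20) and RNU6ATAC (-0.08) were not called. When all groups were fitted together 1 of the 6 was called, and with scaling factors from short genes 4 were.

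Of the genes around RNU4ATAC, CLASP1 could be tested. CLASP1, on the other strand, had a log2 fold change of -0.10 ± 0.03 SE after heat (adjusted p = 0.039 by edgeR), and the exons of CLASP1-AS1, in whose intron RNU4ATAC lies, held 3 to 6 counts in CtrlA and 3 to 10 in the heated libraries, too few to test. At 300 g CLASP1 went up (0.48 ± 0.03 in wait15min) where RNU4ATAC went down.

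Other snRNA genes and other short noncoding RNAs were set beside these genes, in lists drawn up with earlier results of these data known; the Y RNAs, the single U1, U5 and U6 genes, and RN7SL1 and SNORD13 in hypg9 were chosen after their values were seen. In hypg9, 4 of the 9 other snRNA genes tested were called lower and none higher, beside 8.34% and 11.3% of all genes tested, with a median log2 fold change of -0.34. RNU5D-1 and RNU5F-1, further U5 genes, were among the 4, at -1.04 ± 0.15 and -0.62 ± 0.10 SE. RNU1-1 and RNU1-2, genes of U1, which marks the 5′ end of introns, stood at 0.01 ± 0.14 each. In hypg60, 3 of 10 other snRNA genes were called lower and 1 higher, with a median of -0.05. Of all 16318 genes tested there, 13.0% were called lower and 2791 genes higher. In hypg15, 1 of 10 was called lower and 2 higher, beside 27.9% and 25.4% of all genes tested, with a median of 0.16.

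Of 9 other noncoding RNAs, 8 were called lower in hypg9, beside the same 8.34%, with a median log2 fold change of -0.48. The Y RNAs, small RNA polymerase III products bound by Ro protein, were among the 8, RNY4 at -2.25 ± 0.19, RNY1 at -1.67 ± 0.15 and RNY3 at -1.64 ± 0.20 SE. SNORD13 was at -0.89 ± 0.11, SNORA73B at -0.48 ± 0.09 and SNORD3A, whose 699 bases in the table include the U3 RNA of ribosome assembly, at -0.35 ± 0.08. RN7SL1, the RNA of the signal recognition particle, stood at 0.01 ± 0.08 and was not called.

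In wait15min, 8 of 8 other snRNA genes and 9 of 9 other noncoding RNAs were called lower, beside 40.5% of all genes tested, with medians of -1.25 and -1.58. RN7SL1 fell here too, from 42850 to 14070 CPM (log2 fold change -1.61 ± 0.05 SE), as did SNORD3A, from 1720 to 464 CPM (-1.89 ± 0.07). Between wait4min and wait1min, 4 of the 9 other noncoding RNAs were called lower, among them SNORD3A (-0.94, adjusted p = 1.4e-08 by edgeR) and SNORA73B (-0.76, adjusted p = 1.2e-07), and 1 of 7 other snRNA genes, beside 0.246% of all genes tested.

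After heat, 6 of the 9 other snRNA genes were called higher and none lower, beside 10.6% and 10.2% of all genes tested. RNU6-8, a U6 gene, rose by 1.40 ± 0.19 on the log2 scale and RNU1-1 by 1.09 ± 0.16 SE, while of the 9 other noncoding RNAs only SNORD13 was called (0.38 ± 0.10). RNU6-8 and RNU1-1 held 2.42 and 2.55 CPM in the heated libraries and belong to families with near-identical copies, so the split among copies is uncertain.

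**Figure D4:**
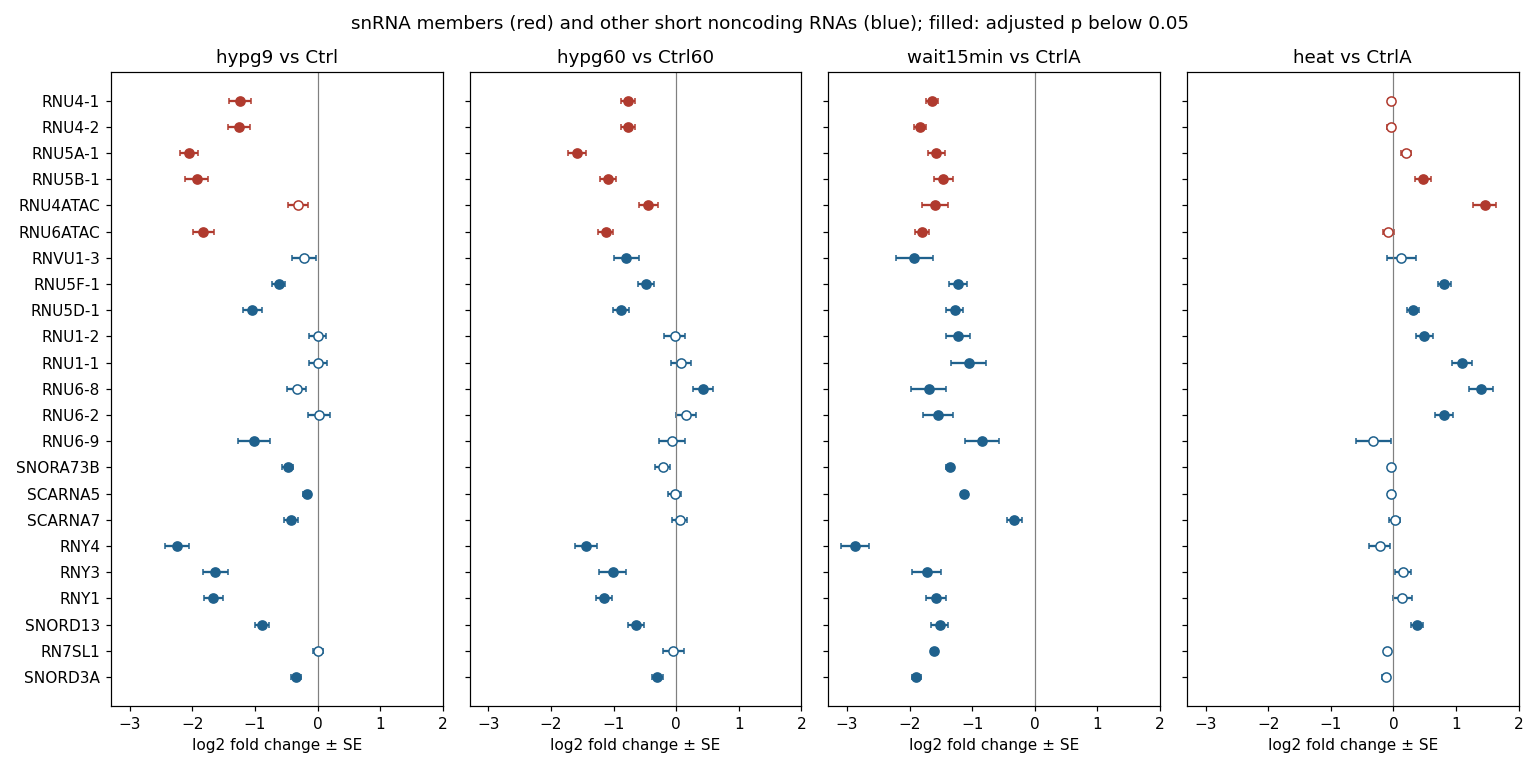
Log2 fold change with SE (horizontal axes) of the 6 measurable snRNAs (red) and of other short noncoding RNAs (blue) in 4 comparisons; filled points were called. In hypg9 the Y RNAs lie between -2.25 and -1.64, around the U5 genes and RNU6ATAC, while RN7SL1 and RNU1-1 sit at 0; in wait15min every point is below 0, and after heat RNU4ATAC, RNU6-8 and RNU1-1 are the furthest to the right.

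Likeness was measured as Pearson's r over the 12 log2 fold changes against the own control, among 8987 genes of at least 10 CPM tested in all of them. The points share control libraries, so r is only a description. Closest to the summed U4 genes were 2 annotated 7SK pseudogenes, RN7SKP80 (r = 0.98) and RN7SKP180 (r = 0.96), followed by MIR3609 (r = 0.93). Closest to RNU6ATAC were RN7SKP80 (r = 0.84), RN7SKP180 (r = 0.80) and ATP5ME (r = 0.79), and closest to the summed U5 genes PPIH (r = 0.75), RN7SKP80 (r = 0.71) and DYNLT1 (r = 0.69). PPIH encodes a cyclophilin of the U4/U6 particle. For RNU4ATAC they were B9D1 (r = 0.96), HACL1 (r = 0.96) and ENSG00000279602 (r = 0.95), all of them different from those of the other 3 profiles. No likeness could be given for RNU11 and RNU12.

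The genes of proteins that work with these RNAs were described mainly in hypg9 and hypg15, where 11.3% and 25.4% of all genes tested were called higher, beside 8.34% and 27.9% called lower. Of 14 proteins of the minor spliceosome, 2 were called higher and 3 lower in hypg9, with a median log2 fold change of -0.07. ZCRB1, a U11/U12 protein, fell to 14.9 CPM from 22.5 CPM (-0.59 ± 0.10 SE) and PDCD7 by 0.19, while CENATAC (0.24) and ARMC7 (0.21) rose. In hypg15, where the U4 genes were not called, ZCRB1 stood at 9.55 CPM (-1.24).

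Of 17 proteins of the U4/U6 and U5 particles, 6 were called lower in hypg9 and none higher, with a median of -0.09; SART1, which joins the tri-particle, stood at -0.20 and PPIH at -0.17. In hypg15, 4 were called higher and 2 lower, with a median of -0.01. Of the 14 Sm and LSm ring proteins, 8 were called lower in hypg9 with a median of -0.19, led by LSM3 (-0.43) and SNRPG (-0.33). In hypg15, 9 were lower and 1 higher, and LSM3 was at 25.3 CPM against 53.9 CPM in Ctrl (-1.10).

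Of 25 genes of snRNA transcription and 3′ end processing, 1 was called higher and 3 lower in hypg9, SNAPC4, a subunit of the factor that starts snRNA transcription, at 0.22 and the Integrator subunits INTS13 at -0.26 and INTS12 at -0.21. In hypg15, 5 were higher and 13 lower, with ICE1 at -0.98 and INTS13 at -0.82. Of 19 genes of snRNP assembly, export and cap formation tested, 1 was called lower in hypg9 and 15 in hypg3, where 24.4% of all genes tested were called lower. In hypg3 TGS1, which makes the trimethyl cap, was at -0.63 and the export receptor XPO1 at -0.49. In hypg15, 11 of the 19 assembly genes were lower and 1 higher, beside 27.9% and 25.4% of all genes tested. There TGS1 was at -0.95 and GEMIN4 at 0.17.

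In wait15min, where 41.8% of all genes tested were called higher and 40.5% lower, the protein lists also held called genes of both directions. There 7 of the 14 minor spliceosome genes were called higher and 7 lower, with RNPC3, which binds U12, at 23.9 CPM against 4.89 CPM in CtrlA (log2 fold change 2.28), SNRNP48 at 1.70, SNRNP25 at -1.09 and ZMAT5 at -1.01. Of the U4/U6 and U5 particle proteins 15 of 17 were lower, led by PRPF6 (-0.97) and SART1 (-0.95), and SNRNP27 was higher (0.90). Of the ring proteins 5 were higher and 7 lower, with LSM8, which belongs to the U6 ring, at 1.79, SNRPE at 0.61, SNRPD2 at -1.09 and LSM2 at -1.06. In the lists for transcription and for assembly 12 and 11 genes were higher and 10 and 8 lower, among them ICE2 (1.94), POU2F1 (1.78), XPO1 (1.46), PHAX (1.45), SNAPC2 (-1.06), PRMT5 (-0.95) and GEMIN4 (-0.93), and INTS5 stood at 47.2 CPM against 94.5 CPM in CtrlA.

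None of the minor spliceosome, particle, transcription or assembly genes was called between wait4min and wait1min by edgeR, and of the ring proteins 1 was, LSM5 (-0.28, adjusted p = 0.024). After heat, where 10.6% of all genes tested were called higher and 10.2% lower, 1 minor spliceosome gene was called higher and 4 lower, with CENATAC at 0.30 and ZCRB1 and RBM48 at -0.38 each. Of the U4/U6 and U5 particle list 1 was higher and 4 lower, and of the ring list 1 was higher and 1 lower. Of the transcription list 4 were higher and 4 lower, SNAPC5 at 0.49 and TBP at -0.30 among them, and of the assembly list 1 was lower.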

How the data were processed

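RNA of 80 Jurkat libraries was depleted of ribosomal RNA, and strand-specific libraries were sequenced in pairs. Per the labels and the file header, the authors trimmed reads with Trim Galore 0.6.5, aligned them to hg38 with STAR 2.7.3a and counted read pairs per gene by strand with featureCounts (2.0.1 in the labels, 2.0.3 in the header) on Ensembl release 104. The deposited file holds these raw counts and the exon length in bases. 3 lines without a usable record were left out. Symbols were found for 42027 of 60663 genes, GC content for 58336. Counts were filtered with filterByExpr (minimum count 10), scaled by TMM and tested with edgeR 4.0.16 in R 4.3.3 (quasi-likelihood test, Benjamini-Hochberg adjustment over all genes, threshold 0.05) in the libraries of the 2 groups compared. Ctrl was the control up to 15 min, Ctrl60 at 60 min, CtrlA at 300 g and for heat. Alternatives were RLE factors, total counts, factors from genes of up to 300 bases, no filter, GC correction, DESeq2 1.42.0, all groups in 1 model, library 75 kept, and leaving out libraries in turn. The members and gene lists were chosen with earlier results of these data known. In each list, the genes named were taken from the 2 largest rises and 2 largest falls among those called with a mean of at least 10 CPM, apart from the genes said to be chosen after their values were seen. Intervals from counts of 0 cover counting error only. The sequences of the U5 genes are not reported here.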

Additional observations from a re-analysis of the deposited data

Results flagged for a closer look

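Each of the 6 genes in each of the 15 groups of 4 to 6 libraries was searched for a single library far from the rest. In these 90 searches 1 was found 5 times. Chance alone gives about 1 in 20 searches, which is near the rate found. The searches share libraries, and library 16 was found for both U4 genes. In hypg20s, library 16 was far below the others for RNU4-1 (64.0 CPM) and RNU4-2 (74.0 CPM). In hypg60, library 44 was far below for RNU5A-1 (3.86 CPM). RNU4ATAC was far above in library 27 of hypg5 (2.85 CPM) and far below in library 37 of hypg9 (1.22 CPM).

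Waiting times of 4 and 1 min after 300 g were set against each other, and edgeR called a difference for RNU4-1 (log2 fold change -0.70), RNU4-2 (-0.62), RNU5A-1 (-0.67) and RNU6ATAC (-0.84), in each case lower at 4 min. The genes were selected on the fold changes from which these differences follow, so the calls lend them no independent support.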

How the results depend on the processing

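Of 1092 values of single members under the alternatives, 1016 stayed on their side of the threshold (18 of them changed sign without a call on either side), 57 lost the call, 17 gained one and 2 changed sign with a call on one side: in hypg15, RNU4-1 was at -0.27 with factors from short genes, and RNU5B-1 at 0.048 with GC correction. Members called were 1 (hypg75s), 1 (hypg3), 3 (hypg5), 1 (hypg15) and 1 (heat) with all groups in 1 model, 2 with total counts and 1 with GC correction in hypg3, 0 with GC correction and 4 with short-gene factors in hypg15, 4 with short-gene factors after heat, 2 (wait15min against wait1min) and 1 (wait4min against wait1min) with DESeq2, 2 with GC correction in wait4min against wait1min, and 1 without the filter in wait15min against wait4min. Leaving out single libraries gave 1 to 3 members called in hypg15 (1 without library 76), 0 to 5 in wait15min against wait1min, 2 to 5 in wait4min against wait1min and 0 to 1 in wait15min against wait4min. The cause of these changes was not tested. The counts for hypg20s, hypg7, hypg9, hypg60 and the 3 groups against CtrlA stayed within 1.5 times under all alternatives run. Leaving out libraries in turn in hypg7, library 16 and library 42 was added after seeing the data. No paired analysis was possible because no library number is shared between groups. Depth limits RNU4ATAC most, at 14 to 243 counts.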

Other observations

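ENSG00000270022, the gene whose exon covers all of RNU12, was looked at after the zeros of RNU12 were seen. It held 3.48 ± 0.50 CPM (SD, n = 4) in CtrlA, 0.74 ± 0.12 CPM (n = 4) in wait15min and 6.62 ± 0.79 CPM (n = 4) after heat. By edgeR its log2 fold change was -2.23 (adjusted p = 3.9e-10) in wait15min and 1.00 (adjusted p = 1.4e-05) after heat, and 0.00 (adjusted p = 1) in hypg9. Read pairs that lie wholly inside RNU12 overlap both genes alike and cannot have been counted for it.

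Library 75 of hypg15, used only in an alternative fit, had 17205655 counts, with 2678 for RNU4-1, 2686 for RNU4-2, 256 for RNU5A-1, 118 for RNU5B-1 and 52 for RNU4ATAC. RNU6ATAC, on a chromosome without counts there, had 0.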
